A study of Mus musculus with 8 samples.

Results

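The genes described here encode the lysosome's digestive enzymes and some of its membrane proteins: glycosidases, sulfatases, lipid hydrolases, cathepsins and other proteases, activator and lipid carrier proteins, membrane proteins, and Tfeb, the transcription factor that drives many of them. Of 38 such genes, 36 had at least 1 gene probe whose RefSeq transcript accession belonged to the gene, out of 13971 genes named on the array, with 38 probes in all among the array's 34967 gene probes. Npc1 and Arsb had no matched probe and are not analysed here. The set was drawn up after Glb1 and Ctsk had been seen to move in opposite directions in these same embryos, so the values of these 2 genes are given as a description without a test. The remaining members were compared by class over the 3 genotypes.

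RNA came from whole E11.5 mouse embryos, 1 embryo per array, and was hybridised to one-colour CodeLink oligonucleotide arrays. The parents carried an allele of Ott1 (Rbm15, an RNA-binding protein) that is expressed at a low level, and the embryos fell into 3 genotypes: homozygotes for this allele (embryos 2, 7 and 16), heterozygotes (embryos 3, 10 and 15) and wild-type embryos (11 and 13). The labels call the allele a knockdown and name no strain, sex or further allele. No probe matched Rbm15, so the reduction of the targeted gene could not be checked on these arrays.

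Several facts of the arrays bear on every value below. All 3 homozygous arrays were brighter before normalization, with median intensities of 60.03 to 84.53, against 48.4 to 57.83 on the 5 other arrays, so brightness and homozygosity cannot be told apart. Embryo 16 (homozygous) stood apart, with 26619 probes above background where the other arrays had at most 23721, and with correlations of 0.956 to 0.967 with the other arrays, against 0.973 to 0.99 among those. The mean level of 4 Y-linked probes also differed, at 5.4 to 6.57 in homozygous, 5.11 to 6.43 in heterozygous and 6.33 to 6.51 in wild-type embryos on the log2 scale. Each array carries 1 embryo and 2 or 3 embryos stand for a genotype, which limits the precision. In RNA of a whole embryo, fewer cells of a type and less RNA per cell cannot be told apart.

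Lysosomal hydrolases work in the acidic lumen of the lysosome, where glycosidases and sulfatases take sugars and sulfate groups off glycolipids and glycosaminoglycans, cathepsins cut proteins, and activator proteins present lipids to the enzymes. Inherited loss of many of these enzymes causes a storage disease, in which undigested material accumulates. TFEB binds a short palindromic element in the promoters of many such genes and raises their transcription together when it enters the nucleus. Cathepsin K differs from the household enzymes in that it is made at high level by osteoclasts, the cells that resorb bone.

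All levels are log2 of the normalised intensity of 1 probe, and differences are homozygous minus the mean of the 5 heterozygous and wild-type embryos unless another comparison is named. The filter for testing, a probe above background on every array of 1 genotype or more, passed 34 members. Galc, the galactosylceramidase, was above background on no array, and Ids, the iduronate sulfatase, was above background only in homozygous embryos 2 and 16 and in heterozygous embryo 15. The Ids probe read 2.17 to 6.11 in homozygous, 3.38 to 5.48 in heterozygous and 4.11 to 4.34 in wild-type embryos, so the homozygous embryos spanned all the others. Of the members, 30 were above background on all 8 arrays. Members lay higher than most probes, with a median level of 8.78, against 7.24 over all tested probes, so most were well measured.

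The lysosomal genes spread on both sides of 0. The median difference over the 34 tested members was 0.11, against -0.06 over all tested probes, with 24 members positive and 10 negative. Without Glb1 and Ctsk, 23 were positive and 9 negative, with the same median. Positive differences made up 39.8% of all tested probes, 39.2% of those above background on all 8 arrays and 43.6% of the probes within 1 log2 unit of the median member level. Apart from Glb1 and Ctsk, 0 of 32 members passed an adjusted p of 0.05 in limma, where 25 of 23388 probes, or 0.107%, did so in either direction. At an unadjusted p under 0.05, 5 members were higher and 2 lower in limma, against 6.63% of all probes higher and 13.4% lower. The sign of these small differences follows the scaling: under median scaling of the arrays the median of all probes was -0.22 and 12 members were positive, and 23 lay above the probe median, against 27 in the analysis described here.

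**Figure D1:**
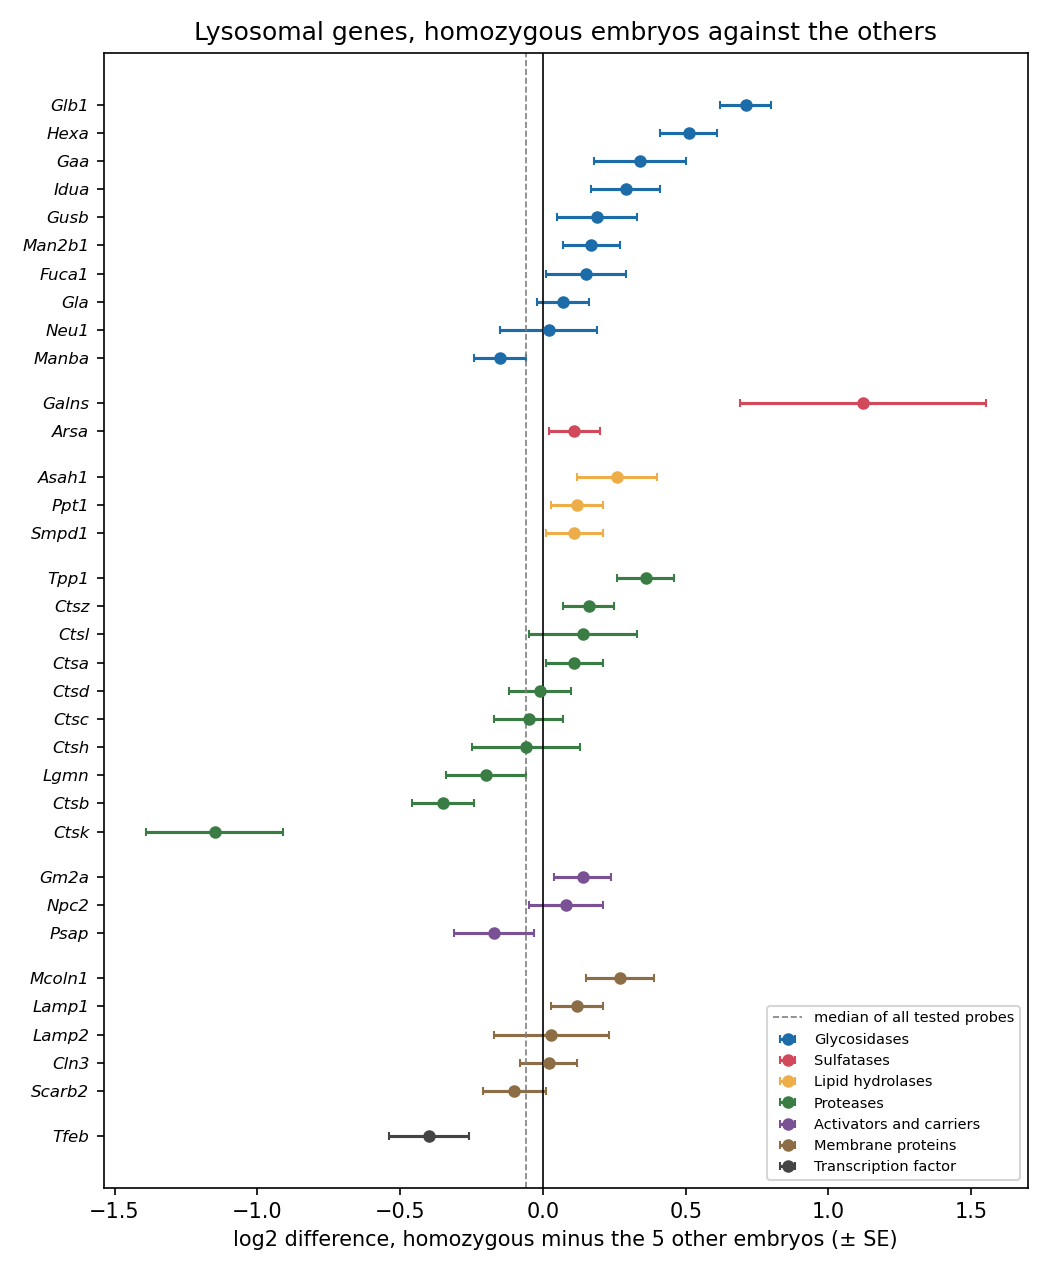
Log2 difference, homozygous minus the 5 other embryos, for the tested members grouped by class, with points for the difference, bars for its standard error and a dashed line at the median of all tested probes (-0.06). Most members sit close to 0, with Glb1 at 0.71 and Galns at 1.12 on one side and Ctsk at -1.15 on the other.

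Glb1 encodes lysosomal beta-galactosidase, which removes galactose from the ganglioside GM1 and from keratan sulfate. Its probe (GE35119) read 9.23, 9.19 and 9.42 in homozygous embryos 2, 7 and 16, against 8.49, 8.62 and 8.64 in heterozygous embryos 3, 10 and 15 and 8.58 and 8.55 in wild-type embryos 11 and 13. All 3 homozygous embryos lay above all 5 others, while heterozygous and wild-type embryos covered the same range. The means were 9.28 ± 0.12 in homozygous (SD, n = 3), 8.58 ± 0.08 in heterozygous (n = 3) and 8.56 ± 0.02 in wild-type embryos (n = 2). Homozygous embryos exceeded the 5 others by 0.71 (SE 0.09), or 1.63-fold.

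Ctsk encodes cathepsin K, a collagen-cutting cysteine protease. Its probe (GE34914) read 3.83, 4.25 and 3.75 in homozygous, 4.82, 4.71 and 4.90 in heterozygous and 5.27 and 5.74 in wild-type embryos. The genotypes did not overlap, with homozygous embryos lowest and wild-type embryos highest. The means were 3.94 ± 0.27 in homozygous (SD, n = 3), 4.81 ± 0.10 in heterozygous (n = 3) and 5.50 ± 0.34 in wild-type embryos (n = 2). The difference was -1.15 (SE 0.24), a 2.21-fold lower level, and the heterozygous minus wild-type difference was -0.69. The signal was dim: it was above background in 1 of 3 homozygous embryos (embryo 16) and in 4 of the 5 others (all but heterozygous embryo 10). With a background correction that adds an offset of 50, the difference relative to all probes was -0.30, against -1.08 without it.

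**Figure D2:**
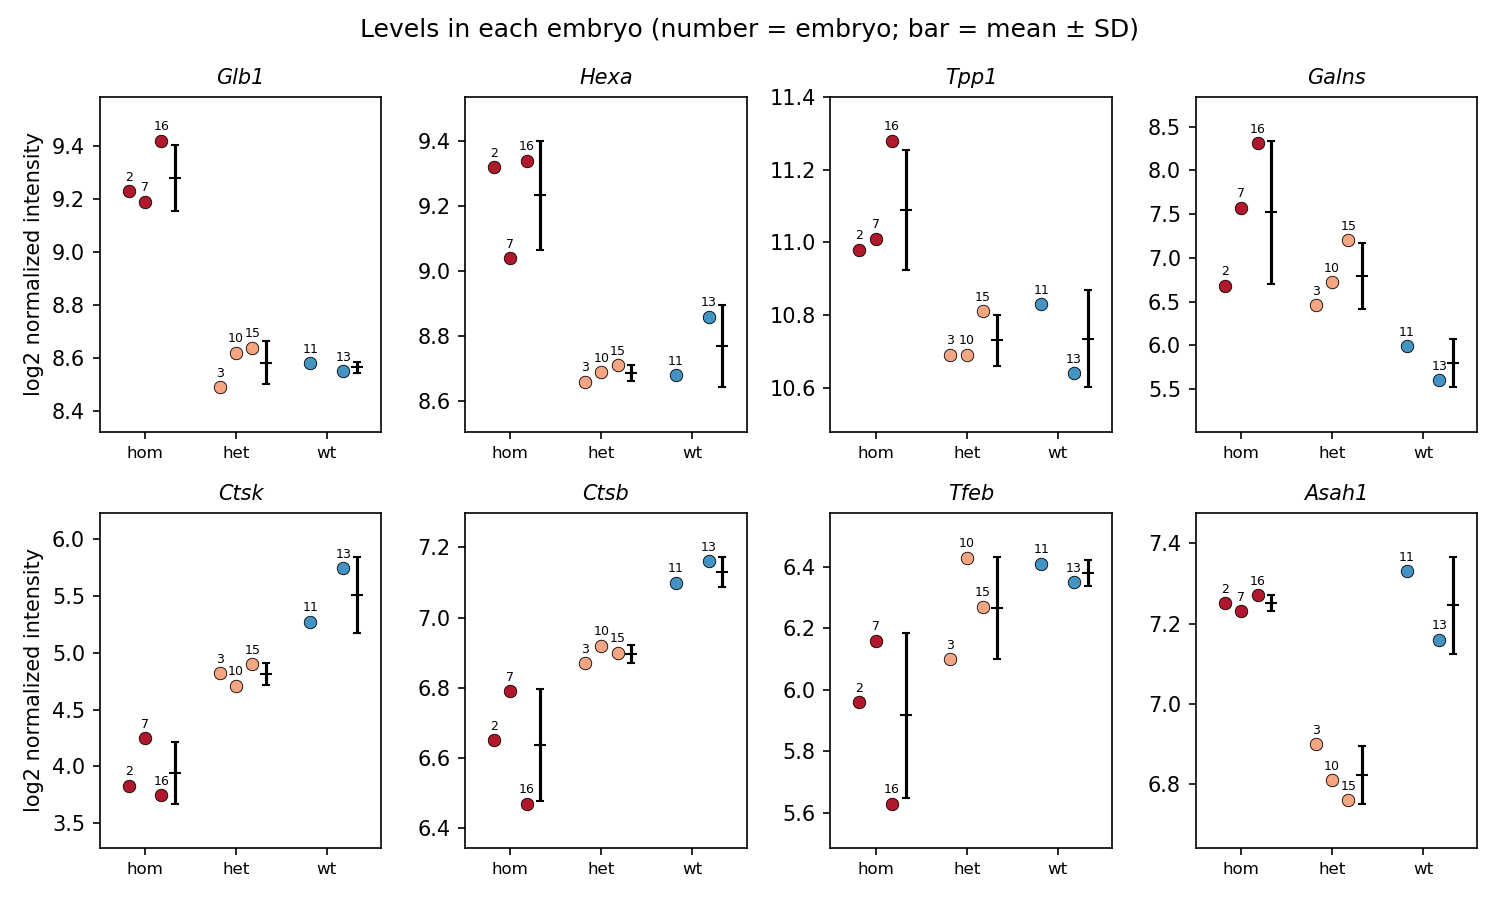
Log2 normalised intensity per embryo, 1 point each, with homozygous embryos left, heterozygous embryos next and wild-type embryos right; the number is the embryo's and the bar is the genotype mean ± SD. Homozygous embryos lie above the 5 others for Glb1, Hexa and Tpp1, and below them for Ctsk and Ctsb.

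Of the 10 tested glycosidases, 9 had a positive difference, with a class median of 0.18. Without Glb1, 8 of 9 were positive with a median of 0.17. Hexa encodes the alpha chain of beta-hexosaminidase, which acts on GM2 ganglioside one step after beta-galactosidase. Hexa (GE36468) read 9.32, 9.04 and 9.34 in homozygous, 8.66, 8.69 and 8.71 in heterozygous and 8.68 and 8.86 in wild-type embryos. The homozygous embryos lay above all the others, a pattern that 4.96% of all tested probes shared. The difference was 0.51 (SE 0.10), or 1.43-fold, with an adjusted p of 0.109 in limma, the lowest among the members other than Glb1 and Ctsk. It passed the threshold in 2 alternatives, with an adjusted p of 0.0456 under a trended robust prior and 0.0401 without homozygous embryo 7, in a range of 0.0401 to 0.315 over the alternatives.

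Also among the glycosidases, Gaa, the acid alpha-glucosidase that breaks down glycogen, had the third largest difference of the class. It read 7.15, 6.66 and 7.10 in homozygous, 6.53, 6.41 and 6.93 in heterozygous and 6.57 and 6.72 in wild-type embryos, so homozygous embryo 7 lay among the others. The difference was 0.34 (SE 0.16) with an adjusted p of 0.268 in limma. Idua, the alpha-iduronidase of heparan and dermatan sulfate breakdown, was at 5.46 to 5.52 in homozygous, 4.90 to 5.28 in heterozygous and 5.35 to 5.36 in wild-type embryos. These groups did not overlap, yet the difference of 0.29 had an adjusted p of 0.236 in limma, and the spot of heterozygous embryo 10 was not above background. The other glycosidases stayed within 0.20 of 0: Gusb (beta-glucuronidase) at 0.19, Man2b1 (alpha-mannosidase) at 0.17 and 0.10 by its second probe, Fuca1 (alpha-fucosidase) at 0.15, Gla (alpha-galactosidase A) at 0.07, Neu1 (sialidase) at 0.02 and Manba (beta-mannosidase) at -0.15. The Gusb spot of embryo 16 was marked by the scanner software and left out, so its value rests on 7 embryos.

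Among the sulfatases, Galns had the largest positive difference of any tested member. It encodes the N-acetylgalactosamine-6-sulfatase of keratan sulfate breakdown, the pathway in which beta-galactosidase also acts. Galns (GE36971) read 6.68, 7.57 and 8.31 in homozygous, 6.46, 6.72 and 7.20 in heterozygous and 5.99 and 5.60 in wild-type embryos. Homozygous and heterozygous embryos overlapped, and both wild-type embryos lay below all 6 of them. The difference was 1.12 (SE 0.43), or 2.18-fold, with an adjusted p of 0.209 in limma, and homozygous minus wild type was 1.72 (SE 0.44) with an adjusted p of 0.216. Relative to all probes the first of these was 1.19, and 0.75 without homozygous embryo 16. Arsa, the arylsulfatase that degrades sulfatide, read 6.91, 7.11 and 7.03 in homozygous, 6.80, 6.91 and 6.94 in heterozygous and 6.89 and 7.02 in wild-type embryos, a difference of 0.11 (SE 0.09, limma adjusted p 0.528).

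Of the 3 lipid hydrolases, Asah1, the acid ceramidase, separated the heterozygous embryos rather than the homozygous ones. Asah1 (GE37521) read 7.25, 7.23 and 7.27 in homozygous, 6.90, 6.81 and 6.76 in heterozygous and 7.33 and 7.16 in wild-type embryos. All 3 heterozygous embryos lay below the other 5. Homozygous minus heterozygous was 0.43 (SE 0.10), or 1.35-fold, with an adjusted p of 0.346 in limma, and heterozygous minus wild type was -0.42 (SE 0.11) with an unadjusted p of 0.00599 and an adjusted p of 1. Smpd1, the acid sphingomyelinase, read 9.57, 9.57 and 9.72 in homozygous, 9.38, 9.44 and 9.55 in heterozygous and 9.71 and 9.49 in wild-type embryos. Ppt1, which removes palmitate from proteins, read 9.97, 10.20 and 10.12 in homozygous, 10.00, 9.90 and 10.00 in heterozygous and 9.92 and 10.05 in wild-type embryos. Both sets of groups overlapped, with differences of 0.11 for Smpd1 and 0.12 for Ppt1.

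The proteases were split, with 4 of 10 positive, 6 negative and a class median of -0.03. Without Ctsk, 4 were positive and 5 negative with a median of -0.01. Ctsb, cathepsin B, a broadly made cysteine protease, had the same order as Ctsk. Ctsb (GE34911) read 6.65, 6.79 and 6.47 in homozygous, 6.87, 6.92 and 6.90 in heterozygous and 7.10 and 7.16 in wild-type embryos. The 3 genotypes did not overlap, an order shared by 1.36% of all tested probes (the opposite order was found in 0.906% of probes and in no member), and homozygous embryos lay below all others, as for 9.69% of probes. The difference was -0.35 (SE 0.11), 1.28-fold lower, with an adjusted p of 0.178 in limma.

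Tpp1, tripeptidyl peptidase, which trims tripeptides from the ends of proteins, lay on the other side. Tpp1 (GE35225) read 10.98, 11.01 and 11.28 in homozygous, 10.69, 10.69 and 10.81 in heterozygous and 10.83 and 10.64 in wild-type embryos. Every homozygous embryo was above every other embryo. The difference was 0.36 (SE 0.10), or 1.28-fold, with an adjusted p of 0.151 in limma. Ctsz, cathepsin Z, an exopeptidase, also did not overlap, at 9.38 to 9.43 in homozygous, 9.13 to 9.30 in heterozygous and 9.24 to 9.37 in wild-type embryos, a difference of 0.16 (limma adjusted p 0.337). For the others the groups overlapped: Ctsl (cathepsin L) at 0.14, Ctsa (the protective protein that holds beta-galactosidase and sialidase in a complex) at 0.11, Ctsd (the aspartic protease cathepsin D) at -0.01, Ctsc (the dipeptidyl peptidase cathepsin C) at -0.05, Ctsh (cathepsin H) at -0.06 and Lgmn (legumain, which processes cathepsins) at -0.20. The Ctsa spot of embryo 16 was left out as marked.

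Macrophages and osteoclasts are rich in cathepsins, so their markers were read beside Ctsk and Ctsb. Of 18 macrophage markers, 15 had a probe and 12 were tested, and all 12 had a negative difference with a median of -0.90, while 0 passed the adjusted threshold in limma in this comparison. In homozygous minus wild type 1 of them passed, Fcgr1, a receptor for antibody, with an adjusted p of 0.0484 in limma. Fcgr1 read 3.75, 3.83 and 3.77 in homozygous, 5.38, 4.68 and 5.48 in heterozygous and 5.96 and 6.01 in wild-type embryos, and was above background in 1 of 3 homozygous embryos and 4 of the 5 others. It entered the test only through the wild-type embryos, where it was highest, so its p-value is not independent of the filter. The genotypes did not overlap and had the same order as for Ctsk and Ctsb. Mrc1, the macrophage mannose receptor, was at -2.22 (SE 0.80, limma adjusted p 0.195) and C1qa, a complement component, at -1.94 (SE 0.73, limma adjusted p 0.204). Mrc1 also entered the test only through the wild-type embryos, and its value in homozygous embryo 7 was the floor set on low intensities (2.17). Itgam was above background on no array. The summed intensity of the list was 853.5 to 918.2 in homozygous, 756.9 to 2150.2 in heterozygous and 1682.5 to 1829.9 in wild-type embryos. The lowest sum belonged to heterozygous embryo 10. Its Ctsk level of 4.71, from a spot not above background, was the lowest of the 5 others, and its Ctsb level was 6.92. Both were above those of all 3 homozygous embryos. Its macrophage markers went both ways. Fcgr1 (4.68), Laptm5 (5.52) and Spi1 (8.30) lay above all 3 homozygous embryos, while Fcer1g (5.95) and Tyrobp (5.99) lay below all 3. Lyz2 (5.96), Mrc1 (4.26) and Cd14 (5.92) lay among them, Mrc1 only because of the floored value of homozygous embryo 7. Of 10 osteoclast markers, 6 were tested, with 3 positive and 3 negative, from Calcr (the calcitonin receptor) at 0.48 to Itgb3 (an integrin chain) at -0.44. Mmp9 and Tnfrsf11a were above background on no array, and the osteoclast sum was 1758.7 to 2041.7 in homozygous, 1482.7 to 1760.2 in heterozygous and 1701 to 1838.6 in wild-type embryos. Most of that sum came from Acp5, at 10.42 to 10.59 in homozygous, 10.06 to 10.37 in heterozygous and 10.31 to 10.47 in wild-type embryos. Acp5 is also counted among the further lysosomal genes below. Of 11 tested mesenchyme markers, 8 were positive, with Dcn (decorin) at 0.39 (limma adjusted p 0.207) and Mmp14 (a membrane metalloprotease) at 0.27. The part of these cells in the Ctsb and Ctsk values was not tested.

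The 3 activator and carrier proteins had differences between -0.17 and 0.14. Psap, the precursor of the saposins, read 9.18, 9.14 and 8.84 in homozygous, 9.05, 8.94 and 9.38 in heterozygous and 9.33 and 9.40 in wild-type embryos, a difference of -0.17 (limma adjusted p 0.519). Gm2a, the GM2 activator that presents ganglioside to hexosaminidase, read 7.24, 7.14 and 7.05 in homozygous, 6.87, 7.06 and 6.98 in heterozygous and 7.15 and 6.97 in wild-type embryos, a difference of 0.14. Npc2, which carries cholesterol within the lumen, read 11.88, 12.15 and 12.39 in homozygous, 12.01, 11.88 and 12.26 in heterozygous and 12.10 and 12.02 in wild-type embryos, a difference of 0.08. In all 3 genes the genotypes overlapped, and relative to all probes the sign of Npc2 turned under median scaling (-0.07) and without homozygous embryo 16 (-0.02).

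Of the 5 membrane proteins tested, Mcoln1, the mucolipin calcium channel, had the largest difference. Mcoln1 (GE42052) read 9.41, 9.47 and 9.51 in homozygous, 9.20, 9.04 and 8.99 in heterozygous and 9.31 and 9.42 in wild-type embryos. The homozygous embryos overlapped with the wild-type ones, and the 3 heterozygous embryos were the lowest. Homozygous minus the 5 others was 0.27 (SE 0.12, limma adjusted p 0.245) and homozygous minus heterozygous 0.39 (SE 0.11, limma adjusted p 0.369). Lamp1, a major glycoprotein of the lysosomal membrane, read 11.10, 10.94 and 10.99 in homozygous, 10.87, 10.80 and 10.92 in heterozygous and 10.89 and 10.98 in wild-type embryos, a difference of 0.12. Scarb2, the receptor that carries glucocerebrosidase to the lysosome, read 8.20, 8.41 and 8.66 in homozygous, 8.47, 8.52 and 8.45 in heterozygous and 8.61 and 8.56 in wild-type embryos, a difference of -0.10, and -0.16 by its second probe. Lamp2, which takes part in the fusion of autophagosomes with lysosomes, was at 8.40 to 9.38 in homozygous, 8.77 to 8.83 in heterozygous and 8.65 to 8.98 in wild-type embryos, a difference of 0.03. Its highest level was in homozygous embryo 16 and its lowest in homozygous embryo 2. Cln3, a membrane protein lost in juvenile Batten disease, had a difference of 0.02.

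**Figure D3:**
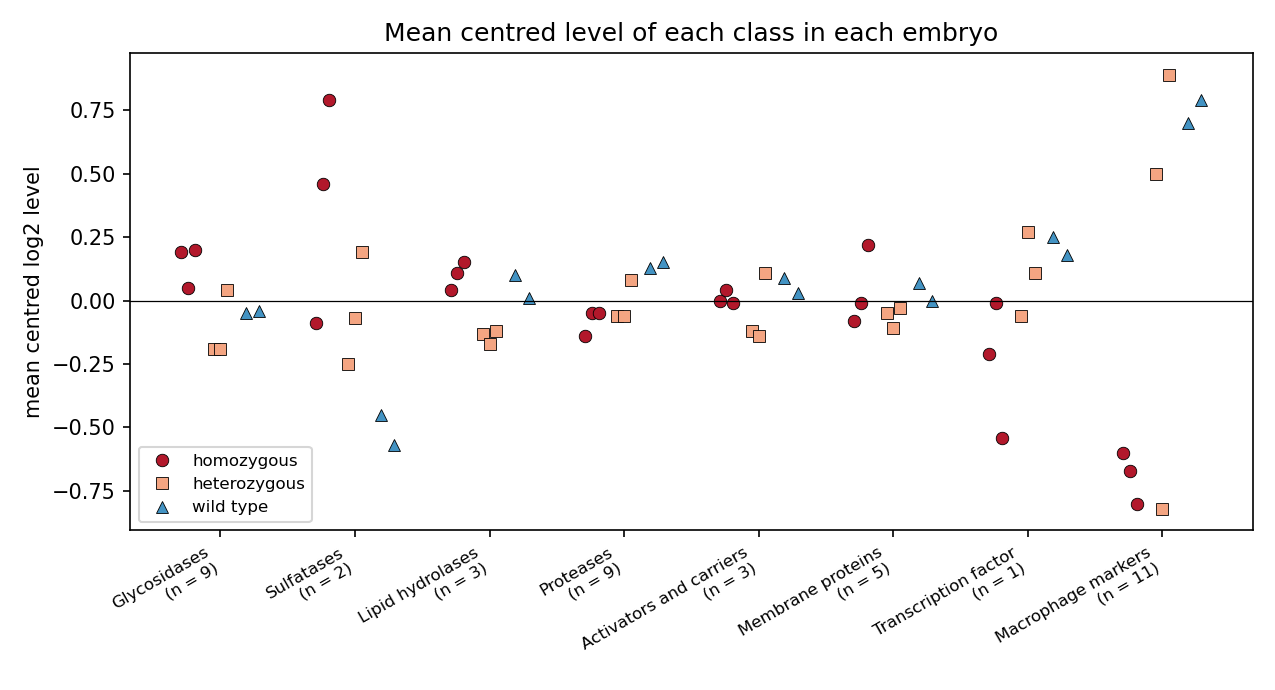
Mean deviation of the tested genes of each class, and of the macrophage markers, from their own mean over the 8 embryos, in log2 units, over genes measured on every array, 1 point per embryo, homozygous left of heterozygous left of wild type. Heterozygous embryos lie lowest for the lipid hydrolases (-0.13, -0.17 and -0.12). The glycosidase score includes Glb1 and the protease score includes Ctsk, the 2 genes seen before the set was drawn up. Ctsk was highest in the wild-type embryos (5.27 and 5.74), so their protease scores (0.13 and 0.15) are not independent of it.

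Tfeb itself (GE36180) read 5.96, 6.16 and 5.63 in homozygous, 6.10, 6.43 and 6.27 in heterozygous and 6.41 and 6.35 in wild-type embryos. Only homozygous embryo 7 reached into the range of the others. The difference was -0.40 (SE 0.14), 1.32-fold lower, with an adjusted p of 0.186 in limma. These are transcript levels and do not measure the TFEB protein or its place in the cell.

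The element bound by TFEB contains CACGTG, which reads the same on both strands. CACGTG was looked for in the promoter windows that RefSeq's GRCm38.p6 annotation gives, 250 bases before to 50 after a start site. Some genes have more than 1 window, and a gene counted if any of its windows held CACGTG. Ctsa, Cln3 and Lgmn held it in 1 window and lacked it in another, and the Ctsa stretch is from the window that holds it. Of 33 members with a window, 11 held CACGTG (33.3%), against 2187 of 27025 genes (8.09%). The longer form GTCACGTG, on either strand and overlapping CACGTG, was in 9 members (27.3%), against 2.55% of all genes, and TCACGTGA in 5 (15.2%), against 1.12%. The stretches below run 5′ to 3′ on the gene's own strand, with CACGTG in capitals. They show it in Glb1, Ctsa, Mcoln1, Lamp1 and Gla (3 enzymes and 2 membrane proteins), all with positive differences. Gaa, Arsa, Ctsl and Cln3, with positive differences, also hold CACGTG and are not shown. Nor are Lgmn (-0.20) and Ctsd (-0.01), which hold it and had negative differences. Glb1 and Ctsk were seen before the set was drawn up, so their stretches side by side are a description only. The last stretch is from Ctsk, 1 of the 19 tested members whose window lacks it.
Glb1, chr9:114400993-114401072 (+): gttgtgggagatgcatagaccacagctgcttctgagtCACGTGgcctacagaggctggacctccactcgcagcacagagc
Ctsa, chr2:164833724-164833803 (+): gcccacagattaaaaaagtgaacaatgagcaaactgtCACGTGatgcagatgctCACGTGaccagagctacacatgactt
Mcoln1, chr8:3500411-3500490 (+): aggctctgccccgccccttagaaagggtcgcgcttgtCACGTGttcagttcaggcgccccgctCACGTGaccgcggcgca
Lamp1, chr8:13159063-13159142 (+): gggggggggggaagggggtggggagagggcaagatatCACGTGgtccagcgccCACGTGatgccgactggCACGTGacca
Gla, chrX:134601176-134601255 (-): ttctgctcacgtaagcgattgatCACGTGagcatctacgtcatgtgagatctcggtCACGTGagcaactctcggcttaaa
Ctsk, chr3:95499143-95499222 (+): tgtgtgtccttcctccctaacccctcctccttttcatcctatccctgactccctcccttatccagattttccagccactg

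Members with and without the element had the same median difference. The 11 with CACGTG had a median difference of 0.11, from -0.20 (Lgmn) to 0.71 (Glb1), with 9 positive and 2 negative. The 19 tested members whose window lacked it had a median of 0.11, from -1.15 (Ctsk) to 0.51 (Hexa), with 13 positive and 6 negative. These counts include Glb1 and Ctsk, which were seen before the set was drawn up. Galns, Asah1, Ctsb and Ctsh were tested but had no window. A match of these letters is a description of the sequence and not evidence of binding.

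The members were also compared between each pair of genotypes. These comparisons share embryos, so their values stand side by side and were not tested against each other. Homozygous minus wild type had a median of 0.06 over the members with 23 of 34 positive, against -0.07 over all probes, of which 40.1% were positive, and 0.0342% of probes passed the adjusted threshold in limma. Without Glb1 and Ctsk, 22 of 32 were positive. At an unadjusted p under 0.05 in limma, 3 of the 32 members other than Glb1 and Ctsk were higher and 2 lower, against 5.93% of all probes higher and 9.36% lower. Homozygous minus heterozygous had a median of 0.13 with 25 positive, against -0.06 over all probes, of which 40% were positive and 0.0214% passed. Without Glb1 and Ctsk, 24 of 32 were positive. Here 5 of the 32 were higher and 0 lower at an unadjusted p under 0.05 in limma, against 3.78% and 7.85% of all probes. Heterozygous minus wild type had a median of -0.08 with 6 positive and 28 negative, against -0.01 over all probes, of which 48.5% were positive and 0% passed in limma. Without Glb1 and Ctsk, 5 were positive and 27 negative. Here 0 of the 32 were higher and 2 lower at an unadjusted p under 0.05 in limma, against 1.26% and 1.04% of all probes, or 538 probes in all. The 6 positive of 34 became 10 without heterozygous embryo 3 or 10, and 12 without wild-type embryo 11. They became 7 without wild-type embryo 13 and 4 without heterozygous embryo 15. Apart from Glb1 and Ctsk, 0 members passed in any of these comparisons.

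The wider lysosomal pathway was read through lists of other genes, and 0 members of any of these lists passed the adjusted threshold in limma. Of 24 further lysosomal genes tested, 15 were positive and 9 negative with a median of 0.05. Ctss, cathepsin S, a protease of antigen-presenting cells, was at -1.44 (limma adjusted p 0.391). Of 11 genes that sort enzymes to the lysosome, 6 were positive with a median of 0.02. Gnptab, which makes the mannose 6-phosphate tag on new hydrolases, read 7.89, 7.66 and 8.15 in homozygous, 7.34, 7.24 and 6.91 in heterozygous and 7.27 and 7.70 in wild-type embryos, a difference of 0.61 (SE 0.18, limma adjusted p 0.163) in which wild-type embryo 13 reached the homozygous range. Nagpa, which completes that tag, was at -0.36.

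The proton pump, the control of TFEB and autophagy were read beside the median of all probes, -0.06. Of 17 V-ATPase subunits, which acidify the lysosome, 8 were positive and 9 negative with a median of 0.00, and Atp6v0a2 was at -0.52 (SE 0.24, limma adjusted p 0.264) and Atp6v0b at 0.13. Of 14 genes that control TFEB or belong to its family (Tfe3), 10 were positive with a median of 0.06, and 12 lay above the median of all probes. Fnip1 and Flcn, whose products form the folliculin complex that keeps TFEB out of the nucleus, each had a difference of 0.37, with adjusted p-values of 0.22 and 0.226 in limma. Flcn was at 10.46 to 11.09 in homozygous embryos, against 10.21 to 10.41 in the 5 others. Of 15 autophagy genes, 3 were positive and 12 negative with a median of -0.13. Becn1, a subunit of the lipid kinase that starts autophagosomes, read 9.68, 9.72 and 9.59 in homozygous, 9.89, 10.00 and 9.96 in heterozygous and 9.93 and 9.94 in wild-type embryos, a difference of -0.28 (SE 0.08, limma adjusted p 0.154), and Ulk1, the kinase upstream of it, was at -0.41 (limma adjusted p 0.225).

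Markers of tissue around the embryo were read in the same way. Of 10 visceral endoderm markers, 4 were tested, with Sox17 at 0.39 and Rbp4 at -0.21, and Amn was not above background. Of 12 placental markers, 4 were tested, all negative, with Prl3b1, a placental lactogen measured in 7 embryos, at -1.44 (limma adjusted p 0.123) and the placental cathepsin Cts3 at -0.20. Ctsq, Ctsr and Ctsm were above background on no array, and the Prl3d1 spot was marked and left out on all 8. The part of these tissues in the members' values was not tested.

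**Figure D4:**
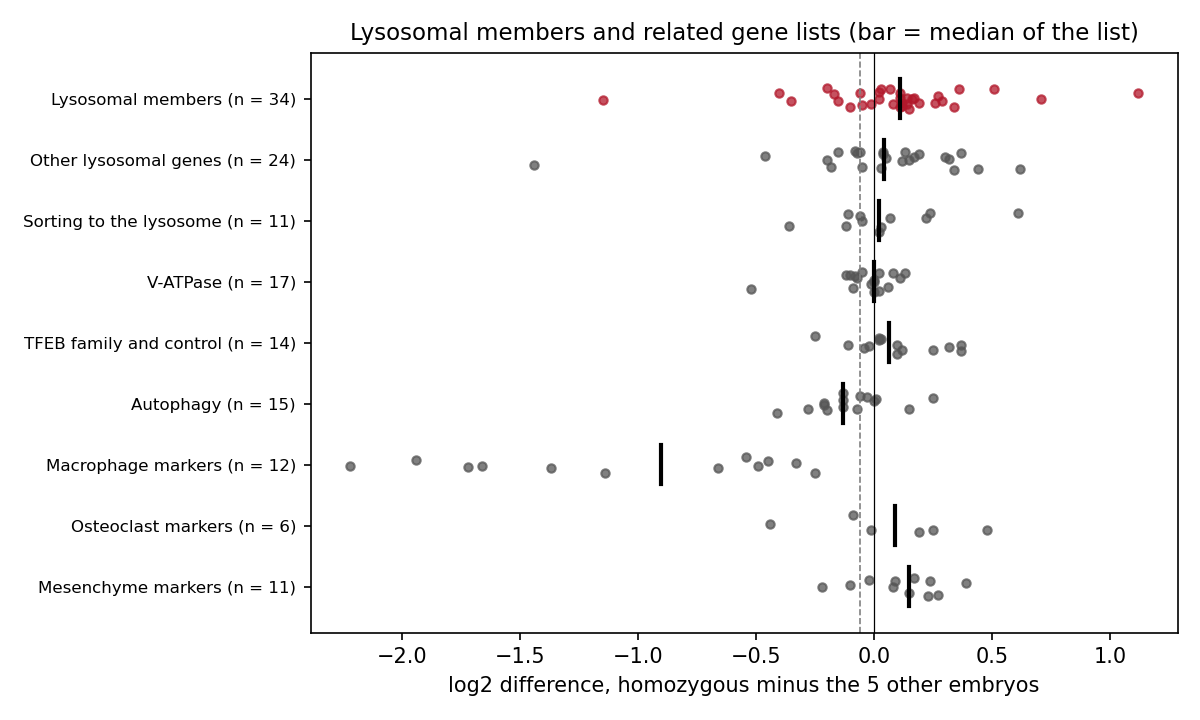
Log2 difference, homozygous minus the 5 other embryos, for each tested gene of the members and of the other lists, with a bar at each list's median and a dashed line at the median of all tested probes. The macrophage markers lie wholly below 0 with a median of -0.90, and the lists of the lysosomal pathway spread around 0.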

How the data were processed

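The deposited array files hold a background-corrected intensity per spot, which is the mean of the spot less the median of its local background, per the file headers. The scanner software is not given in the sources used here. Control spots and spots marked as contaminated, irregular or masked were left out (206 to 1634 gene probes per array). Intensities were quantile normalized, floored at the 5th percentile of positive values (4.5, or 2.17 on the log2 scale) and log2-transformed. The filter (above background on every array of 1 genotype or more) left 23389 probes, tested with limma 3.58.1 (lmFit and eBayes, two-sided) in R 4.3.3, with Benjamini-Hochberg adjustment over all probes and a threshold of 0.05. One model compared homozygous embryos with the 5 others, another the 3 genotypes. The file times differ for all 8 arrays, so no batch could be fitted. Symbols came from RefSeq accessions (14763 probes). The probe with the highest mean stands for a gene.

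The members and lists were chosen with earlier results of these data known. Named in full were Glb1, Ctsk, Tfeb and up to 3 members per class with the largest absolute difference, and of each other list the genes past the threshold and the 2 largest. One gene that this rule names is not reported here. On simulated data with 21788 probes and the homozygous against others design, 44.8% of changes of 0.7 log2 units, 62.7% of 1 and 87.9% of 2 were recovered. For homozygous minus wild type these shares were 16.4%, 35.8% and 83.3%. False calls made up 2.99% of those called in the first design and 9.09% in the second. The simulated noise was independent between probes and arrays, unlike a shift of a whole array. Alternatives covered scaling, the deposited value table, floor, background, filters, marked spots, weights, prior, a Y-linked covariate, probe choice and left-out embryos.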

Additional observations from a re-analysis of the deposited data

Results flagged for a closer look

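Within the 5 heterozygous and wild-type embryos, 34 members were examined for a single embryo far from the rest, where chance alone flags about 1 in 20 groups. Hexa in wild-type embryo 13 was at 8.86, while the nearest of the other 4 embryos was at 8.71 and the lowest at 8.66. Ctsa in wild-type embryo 11 was at 9.94, while the nearest was at 9.80 and the lowest at 9.76. The homozygous embryos were at 9.04 to 9.34 for Hexa and at 9.91 and 9.93 for Ctsa.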

How the results depend on the processing

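Values here are relative to the median of all probes, which was -0.06 for homozygous minus the 5 others, -0.22 under median scaling, -0.25 in the deposited value table and -0.01 under cyclic loess. Of 34 members, Glb1 and Ctsk included, 24 were positive before this centring, 12 under median scaling, 8 in the deposited table and 24 under cyclic loess. The shares of all probes were 39.8%, 23.8%, 21.1% and 48.8%. Across alternatives Glb1 ranged from 0.66 to 0.83, Tpp1 from 0.27 to 0.49, Ctsb from -0.35 to -0.19 and Tfeb from -0.44 to -0.18. Npc2 turned to -0.07 with the arrays median-scaled or read from the deposited values, to -0.06 without embryos 10 and 16 together, and ranged from -0.02 (without homozygous embryo 16) to 0.28 without 1 embryo; Scarb2 turned to 0.08 without homozygous embryo 2. Apart from Glb1 and Ctsk, 1 member (Hexa) passed under a trended robust prior, and leaving out 1 embryo gave 0 to 1 (1 without homozygous embryo 7). The activator median (0.15) was -0.07 with either of these scalings, 0.01 with array weights, -0.06 without embryos 10 and 16 and -0.02 to 0.2 without 1 embryo. The lipid hydrolase median (0.19) was 0.07, 0.07, 0.12 (without 10 and 16) and 0.14 to 0.25, and the protease median (0.03) was -0.05, -0.05, -0.04 and 0 to 0.14.

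Of 25 probes called for homozygous minus the 5 others, 7 were higher. Cyclic loess called 42 (20 higher), 45 in the deposited values, normexp with an offset 85, no filter 6, probes above background on all 8 arrays 50, array weights 99, the trended robust prior 118, a Y-linked covariate 64, and leaving out embryos 10 and 16 called 81. Leaving out 1 embryo gave 5 to 322, with 322 without homozygous embryo 7 and 5 without heterozygous embryo 15 or wild-type embryo 13. Homozygous minus wild type called 8, and 27 under median scaling, 20 under cyclic loess, 27 in the deposited values, a floor at the 1st percentile 5, normexp 36, no filter 4, marked spots kept 5, array weights 186, the trended robust prior 48, a fit of these groups alone 0, without embryos 10 and 16 32, and without 1 embryo 0 to 44. Homozygous minus heterozygous called 5, and 10 under median scaling, 9 under cyclic loess, 12 in the deposited values, normexp 11, the trended robust prior 16, without embryos 10 and 16 32, and without 1 embryo 4 to 58. Heterozygous minus wild type called 0, and 2 with either of those scalings, 1 under cyclic loess, array weights or the trended robust prior, 8 without embryos 10 and 16, and 0 to 3 without 1 embryo. The cause of these shifts was not tested. No paired analysis was possible because the genotypes share no embryo number. A slide or scan block was not run, since each array has a time of its own.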
